A study of Mus musculus with 4 samples.

Results

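The HoxA cluster on mouse chromosome 6 carried 17 positions with a CTCF peak summit in at least 1 library of mouse embryonic stem cells (mESC). Of these, 9 had a summit in all 4 libraries of the study, and several of the others were weak summits of a single library. A position is a place where the summits of 1 or more of the authors' peak lists fall within 100 bp of each other. The positions were taken from 52159059 to 52328389 on chromosome 6, which is the span of Hoxa3, Hoxa4, Hoxa5, Hoxa6, Hoxa7, Hoxa9, Hoxa10, Hoxa11, Hoxa13 and Evx1 with 10 kb added on each side (mm10, counted from 1). They hold 11 of the 74555 peaks of the Del(CBS8-10) library, 11 of the 99177 peaks of the Inv:Del(CBS7-10) library, 10 of the 66365 peaks of the Inv library and 13 of the 93969 peaks of the Ins library.

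CTCF was profiled by CUT&RUN, in which an antibody guides a nuclease to the protein and the DNA cut out around it is sequenced. In all 4 lines a chromosome 11 with the HoxB deletion, named Del, faced a chromosome 11 named Del(i9-13) that held an inserted group of CTCF sites, Ins(CBS5-10). The Del(CBS8-10) line had lost CBS8-10 from that group, the Inv:Del(CBS7-10) line carried the group inverted, Inv(CBS5-10), with CBS7-10 deleted, the Inv line carried it inverted and whole, and the Ins line carried it whole and not inverted. The labels name no change on chromosome 6, so the HoxA genes had the same genotype in every library as far as the labels say. There was 1 library per genotype, so no test between genotypes was possible. How many clones or cultures each library came from is not given in the labels.

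CTCF is a zinc-finger protein that binds a long, oriented DNA motif and stops the cohesin complex as it extrudes chromatin loops. Hox genes encode the homeodomain transcription factors that give identity to segments of the body axis, and within a cluster they are ordered along the DNA as they are along the axis. In the HoxA cluster, CTCF sites between the genes are known as boundaries that keep active and Polycomb-silenced genes apart when stem cells are turned into motor neurons. In undifferentiated stem cells the Hox clusters are mostly silent, and CTCF at a promoter says nothing about its transcription.

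The promoter of Hoxa5, a gene needed for lung and axial skeleton development, is shown because it was the single promoter of the member genes with a summit inside it, and it had one in all 4 libraries. Promoters run from 250 bases before to 50 after the start of transcription and come from RefSeq (GRCm38.p6, the assembly of mm10), which gave 10 of them for 9 of the 10 genes. The Hoxa10 promoter is shown beside it because a peak reached into it in only some libraries. Both are read 5′ to 3′ on the minus strand, the strand of the genes, at chr6:52204538-52204837 for Hoxa5 and chr6:52240805-52241104 for Hoxa10. Capitals mark a match to a short form of the CTCF motif.
Hoxa5: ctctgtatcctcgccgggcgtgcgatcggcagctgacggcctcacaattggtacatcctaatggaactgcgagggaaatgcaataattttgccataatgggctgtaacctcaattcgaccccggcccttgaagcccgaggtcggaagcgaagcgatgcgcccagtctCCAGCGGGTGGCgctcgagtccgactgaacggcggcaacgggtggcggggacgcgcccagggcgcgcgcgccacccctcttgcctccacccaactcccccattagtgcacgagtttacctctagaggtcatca
Hoxa10: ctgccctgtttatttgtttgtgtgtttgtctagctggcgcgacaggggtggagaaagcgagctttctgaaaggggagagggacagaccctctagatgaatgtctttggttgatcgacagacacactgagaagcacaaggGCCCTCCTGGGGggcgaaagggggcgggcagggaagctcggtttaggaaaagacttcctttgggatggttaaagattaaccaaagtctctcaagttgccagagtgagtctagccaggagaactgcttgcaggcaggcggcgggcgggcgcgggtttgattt

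The motif searched on both strands was CC, any 3 bases, AG, any 2 bases and GGC, and neither promoter holds it. The capitals mark matches to a looser form, with any base in place of the A, which was chosen after the data were seen. The looser form is frequent: 25.3% of all 32851 RefSeq promoters hold it, and 8.61% hold the form with the A. Among promoters outside chromosome 11, the looser form was in 1063 of 2222 (47.8%) with a summit in all 4 lists and in 4828 of 23705 (20.4%) with a summit in none. Each of the promoters shown holds a single match, so none overlap. The Hoxa5 match is on the minus strand, as printed. The Hoxa10 match is on the plus strand, so its capitals read as the reverse complement of the motif. The Hoxa5 match, at 52204659 to 52204670, lay 28, 46, 40 and 70 bp from the summits of the Del(CBS8-10), Inv:Del(CBS7-10), Inv and Ins libraries. The peak intervals covered 256, 269, 207 and 255 of the 300 bases of the Hoxa5 promoter in the same order. In the Hoxa10 promoter they covered 86 bases in the Inv:Del(CBS7-10) and Ins libraries and none in the other two, and the match there lay outside every peak interval, 434 to 444 bp from the main summits. Outside chromosome 11, 7.27% of 30562 promoters had a summit in all 4 lists.

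Each value below is the authors' own for 1 peak of 1 list. The −log10 q is the strength of the evidence for a peak, and the fold is the pileup of fragments at the summit over the local background of the same library, as the peak caller gives it. Both depend on depth, which is not given. As a stand-in, the commonest background over the genome was recovered from the lists in fragments per position. It differed, at 0.553, 1.327, 0.19 and 0.858 in the Del(CBS8-10), Inv:Del(CBS7-10), Inv and Ins libraries, but it need not follow depth alone. Libraries are therefore compared by the percentile of the −log10 q of a peak among all peaks of its own list. The lists differ in length and a percentile moves with the number of weak peaks in a list, so medians over all positions are given beside differences.

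**Figure D1:**
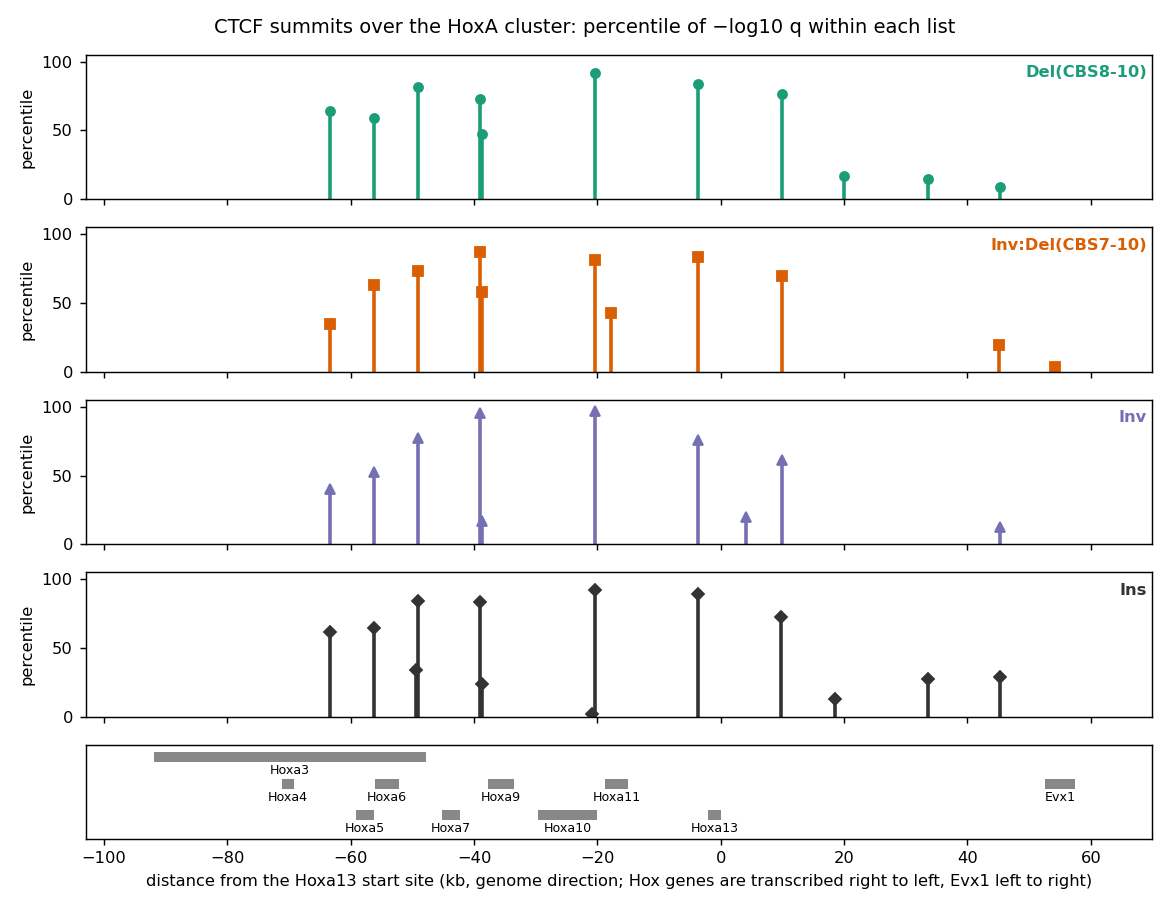
Percentile of −log10 q within its own list (vertical axis, 0 to 100) for every CTCF summit against distance from the Hoxa13 start site in kb, with 1 panel per library and the member genes as grey bars. Hoxa10 stands at 81.1 or higher in all 4 panels, and the summits beyond the one 9.86 kb from the Hoxa13 start lie at 29.2 or lower.

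Every one of the 10 genes had a summit within 10 kb in all 4 libraries, while 63.9%, 69.0%, 60.6% and 68.0% of 46852 RefSeq genes outside chromosome 11 had one in the Del(CBS8-10), Inv:Del(CBS7-10), Inv and Ins libraries. The HoxA genes lie close together and neighbours share the same summits, so they are not separate counts. No summit lay in the 10 kb below the 3′ end of Hoxa3, and none lay within Hoxa4, Hoxa5, Hoxa6, Hoxa7, Hoxa9 or Hoxa13. Hoxa4 and Hoxa6, like their neighbours, act in the axial skeleton, and the summit nearest to the Hoxa4 start was 5.76 kb away, at 52197460. Hoxa3, needed for the thymus and parathyroid, has a RefSeq span of 44009 bp that runs through Hoxa4, Hoxa5 and Hoxa6, so the 3 shared positions up to 52211777 lie within it as well. The position at 52197460, between Hoxa4 and Hoxa5, had a −log10 q of 19.7, 11.9, 9.57 and 30.6 in the Del(CBS8-10), Inv:Del(CBS7-10), Inv and Ins libraries. Its percentile was 64.3, 34.5, 40.5 and 62.0 and its fold 11.3, 7.74, 7.57 and 13.3 in the same order. It thus ranked lower in both libraries with the inverted array. Pileups at this summit were 22, 17, 8 and 34 fragments in the Del(CBS8-10), Inv:Del(CBS7-10), Inv and Ins libraries, whose depths are not given.

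The position at the Hoxa5 promoter, median summit 52204621, lay between the start of Hoxa5 and the 3′ end of Hoxa6, within the antisense lncRNA gene Hoxaas3. Its −log10 q was 16.4, 47.1, 13.6 and 33.9 in the Del(CBS8-10), Inv:Del(CBS7-10), Inv and Ins libraries, with percentiles of 58.8, 63.3, 52.9 and 64.5. These 4 percentiles lie within 12 points of each other, the closest agreement between libraries after the Hoxa6-Hoxa7 position. At 52211777, between Hoxa6 and Hoxa7 and 1.29 kb inside the start of the long Hoxa3 span, the −log10 q was 34.3, 81.0, 29.4 and 74.5, with percentiles of 81.9, 73.4, 77.4 and 84.4. The Ins list had a further summit at 52211468 in the same peak interval, with a −log10 q of 9.57.

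Hoxa7 and Hoxa9, which also pattern the axial skeleton, had no summit within them, but the gap of 4.52 kb between them held 2 shared positions 0.33 kb apart. The stronger, at 52221773, had a −log10 q of 25.9, 156, 62.3 and 71.8 in the Del(CBS8-10), Inv:Del(CBS7-10), Inv and Ins libraries. Its percentile was 72.9, 86.9, 95.4 and 83.4, so it ranked highest in the Inv library and lowest in the Del(CBS8-10) library. The weaker, at 52222103, had a −log10 q of 11.3, 35.4, 5.16 and 6.62 and percentiles of 47.8, 57.9, 16.9 and 24.1. It was the more variable of the pair, near the middle of the lists of both lines with deleted sites and low in the Inv and Ins lists.

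The pair can be read without the depth of the library, as the share of the weaker summit in the pileup summed over both. That share was 37.3% in the Del(CBS8-10) library (19 of 51, 95% Wilson interval 25.3 to 51.0) and 19.6% in the Ins library (19 of 97, 12.9 to 28.6). It was 27.5% in the Inv:Del(CBS7-10) library (60 of 218, 22.0 to 33.8) and 17.8% in the Inv library (13 of 73, 10.7 to 28.1). The intervals of each such pair of libraries overlap. They cover counting error only, and fragments amplified by PCR are not independent molecules. The intervals are also approximate, since both summits lay in one peak interval in the Inv:Del(CBS7-10), Inv and Ins lists. Their pileups need not come from separate fragments, and the local background was not subtracted.

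The Hoxa10 position, at 52240518 within the gene and 335 bp from its start, was the strongest of the cluster by its median over libraries. Hoxa10 acts in the lumbar spine and the uterus. The −log10 q was 48.8, 119, 69.3 and 102 in the Del(CBS8-10), Inv:Del(CBS7-10), Inv and Ins libraries, and the fold was 16.6, 18.3, 22.3 and 18.2. Its percentile was 91.8, 81.1, 96.8 and 92.4, which put it at the top of the 9 shared positions in every library but Inv:Del(CBS7-10), where it took rank 3. The Ins list had a weak second summit at 52240083 in the same interval, with a −log10 q of 2.49.

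Hoxa11, which acts in the forearm and the kidney, held a summit in the Inv:Del(CBS7-10) list only, at 52243128, with a −log10 q of 17.2, a fold of 5.63 and a percentile of 42.9. In that list 22.5% of the 13945 summits outside chromosome 11 with a −log10 q from 10 to 20 were found in no other list. Between Hoxa11 and Hoxa13, the gene of the most distal limb and the genital tubercle, the position at 52257144 had a −log10 q of 36.2, 132, 27.9 and 89.6 in the Del(CBS8-10), Inv:Del(CBS7-10), Inv and Ins libraries. Its percentile was 83.7, 83.3, 75.8 and 89.4, high in every list.

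Beyond Hoxa13 lies a stretch of 67.5 kb that ends 10 kb past Evx1, an even-skipped type homeobox gene of the primitive streak and spinal interneurons. It held 7 positions, 2 of them in all lists. The near one, at 52270735, was 9.86 kb from the Hoxa13 start, with a −log10 q of 28.9, 67.1, 17.4 and 48 and percentiles of 76.5, 69.9, 61 and 72.7 in the Del(CBS8-10), Inv:Del(CBS7-10), Inv and Ins libraries. The far one, at 52306170, was 7.33 kb before Evx1, with a −log10 q of only 3.45, 6.65, 4.78 and 7.95. Its summits spread over 114 bp, the widest spread among the 9 shared positions, where the median was 13 bp against 18 bp over all positions outside chromosome 11 shared by the 4 libraries. The Inv:Del(CBS7-10) and Inv summits there were more than 100 bp apart and were joined through the others.

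The remaining positions beyond Hoxa13 were weak, with a −log10 q from 3.02 to 7.59. The one at 52294499 was found in the Del(CBS8-10) and Ins lists. Single-list summits lay at 52264971 within Hottip in the Inv list, at 52279409 in the Ins list, at 52280827 in the Del(CBS8-10) list and at 52315017 within Evx1 in the Inv:Del(CBS7-10) list. Hottip is a lncRNA known from human cells to keep the neighbouring HOXA genes active.

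**Figure D2:**
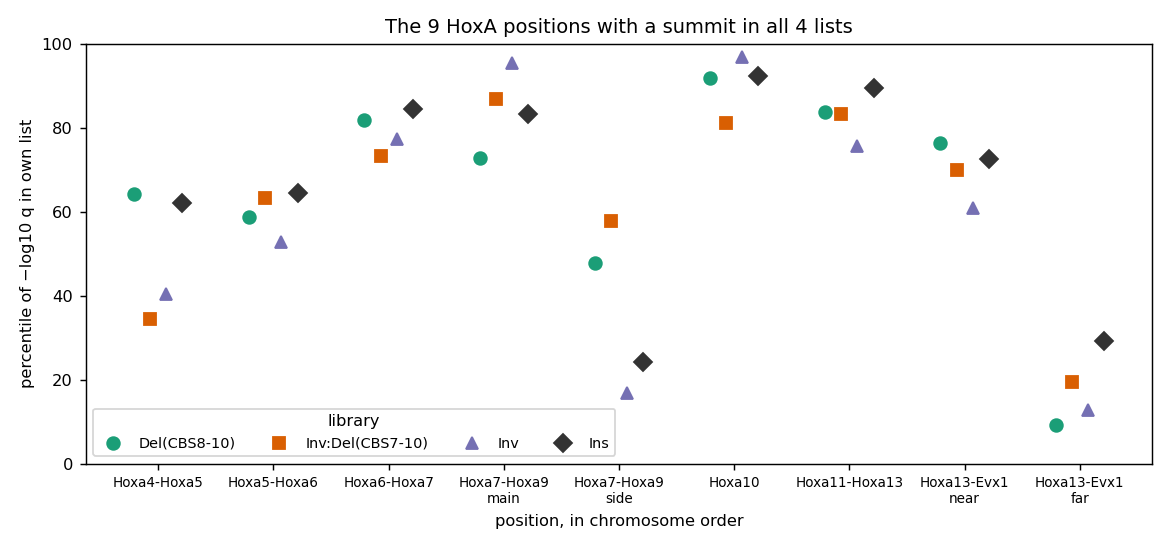
Percentile of −log10 q in its own list for the 9 positions with a summit in all 4 lists, in chromosome order, with 1 marker per library. Hoxa10 stands highest by its median (92.1) and the far Hoxa13-Evx1 position lowest (16.1), and the libraries lie furthest apart at the weaker Hoxa7-Hoxa9 position (16.9 to 57.9).

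Ordered by their median percentile over the 4 libraries, the 9 shared positions were Hoxa10 (92.1), the stronger Hoxa7-Hoxa9 position (85.2), Hoxa11-Hoxa13 (83.5), Hoxa6-Hoxa7 (79.7), the near Hoxa13-Evx1 position (71.3), Hoxa5-Hoxa6 (61), Hoxa4-Hoxa5 (51.2), the weaker Hoxa7-Hoxa9 position (36.0) and the far Hoxa13-Evx1 position (16.1). The range over libraries of each position overlapped that of the next in this order in all 8 cases. Within libraries, Hoxa6-Hoxa7 ranked above the near Hoxa13-Evx1 position in 4 of 4, and the near Hoxa13-Evx1 position above Hoxa5-Hoxa6 in 4 of 4, while the other neighbours changed order in at least 1 library. Of all 36 pairs, 21 had ranges that did not overlap. Among them, Hoxa10 (81.1 to 96.8) stood apart from the near Hoxa13-Evx1 position (61 to 76.5) and from all positions below it.

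The Hoxa3-Hoxa7 part was compared with the Hoxa9-Hoxa13 part within each library, with the gap between Hoxa7 and Hoxa9 counted in neither. The Hoxa3-Hoxa7 part ranked lower in all 4 libraries. Its median percentile was 64.3, against 87.8 in the Hoxa9-Hoxa13 part, in the Del(CBS8-10) library, and 63.3 against 81.1 in the Inv:Del(CBS7-10) library. It was 52.9 against 86.3 in the Inv library and 63.2 against 89.4 in the Ins library. The differences, Hoxa3-Hoxa7 minus Hoxa9-Hoxa13, were −23.4, −17.9, −33.4 and −26.2 points in that order, and −17.8, −17.4, −30.7 and −20.3 points when peaks were ranked by their fold.

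These medians rest on few summits: 3, 3, 3 and 4 in the Hoxa3-Hoxa7 part and 2, 3, 2 and 3 in the Hoxa9-Hoxa13 part of the Del(CBS8-10), Inv:Del(CBS7-10), Inv and Ins libraries. The summits of 1 library are not replicates, and the difference was given no test. In the Del(CBS8-10) library the parts did not overlap, at 58.8 to 81.9 in Hoxa3-Hoxa7 and 83.7 to 91.8 in Hoxa9-Hoxa13. In the Inv library they did, since the Hoxa6-Hoxa7 position (77.4) ranked above the Hoxa11-Hoxa13 position (75.8). In the Inv:Del(CBS7-10) and Ins libraries the parts overlapped only through single-list summits of the Hoxa9-Hoxa13 part, at percentiles of 42.9 and 2.12. In number the parts were close: 0.606, 0.606, 0.606 and 0.808 summits per 10 kb in the 49.5 kb of the Hoxa3-Hoxa7 part, and 0.529, 0.794, 0.529 and 0.794 in the 37.8 kb of the Hoxa9-Hoxa13 part. With the gaps split at their midpoints the difference shrank to −10.4, −12.2, −15.5 and −9.51 points in the Del(CBS8-10), Inv:Del(CBS7-10), Inv and Ins libraries.

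**Figure D3:**
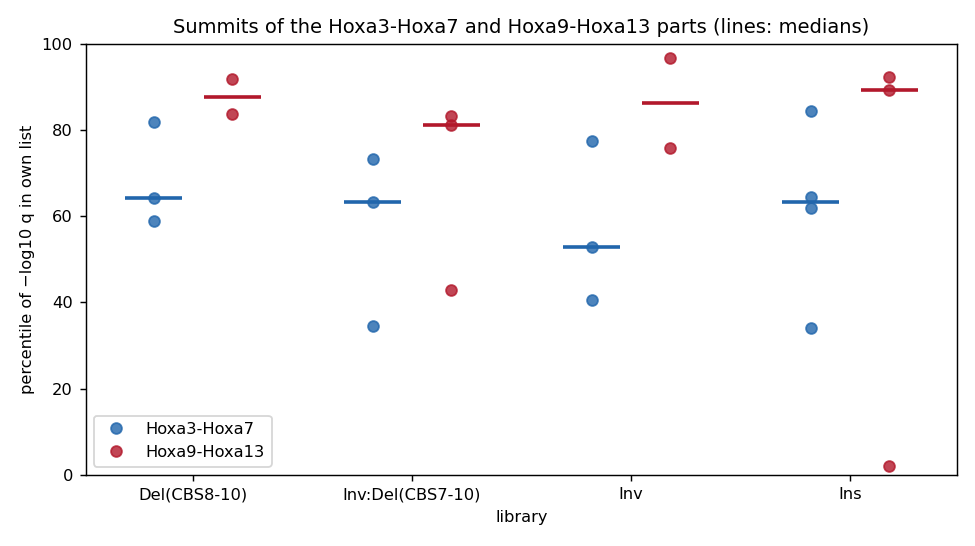
Percentile of −log10 q in its own list for each summit of the Hoxa3-Hoxa7 part (blue) and of the Hoxa9-Hoxa13 part (red) in each library; lines are medians. The blue median lies below the red one in all 4 libraries, by 17.9 to 33.4 points.

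The local background also differed along the cluster. At summits of the Hoxa3-Hoxa7 part it was 1.88 to 2.93, 1.00 to 3.18, 1.00 to 4.21 and 1.91 to 3.85 times the genome background in the Del(CBS8-10), Inv:Del(CBS7-10), Inv and Ins libraries. In the Hoxa9-Hoxa13 part it was 3.33 to 3.98, 3.89 to 4.73, 6.11 to 10.1 and 5.10 to 6.08 times. A higher local background lowers the fold and the −log10 q of a summit with the same pileup. Its part in the differences between positions was not tested.

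The lists shared the strong HoxA peaks. Of the 11 Del(CBS8-10) summits, 10 were found within 100 bp in the Ins list (90.9%, 95% Wilson interval 62.3 to 98.4), against 81.4% of all Del(CBS8-10) summits outside chromosome 11. Of the 10 Inv summits, 9 were found in the Ins list (90.0%, 59.6 to 98.2), against 80.7% of all. Of the 11 Inv:Del(CBS7-10) summits, 8 were found in the Inv list (72.7%, 43.4 to 90.3), against 56.3% of all. Each background share lies inside the interval of the HoxA share.

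By strength, all 7 HoxA summits of the Ins list with a −log10 q of at least 20 were found in every other list. Over all Ins summits outside chromosome 11 that share was 69.8% from 20 to 50, 96.4% from 50 to 100 and 98.8% at 100 and above. Of the 4 HoxA summits of the Ins list with a −log10 q from 5 to 10, the weaker Hoxa7-Hoxa9 position and the far Hoxa13-Evx1 position were found in every other list, against 8.88% of all 17864 such summits. Of all 17 HoxA positions, 52.9% were in all 4 lists (31.0 to 73.8), and 32.8% of 123687 positions outside chromosome 11 were.

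Between genotypes, HoxA positions were compared by their difference in percentile. A difference in percentile of at least 20 points was taken as the size to report, a size chosen after the values were seen. In the Del(CBS8-10) library against the Ins library, 1 of 10 HoxA positions was that much higher and 1 that much lower, and over all 54816 positions 2.52% were higher and 16.2% lower. The higher one was the weaker Hoxa7-Hoxa9 position, by 23.7 points, and 98.4% of all positions had a lower difference. The lower one was the far Hoxa13-Evx1 position, by −20.1 points.

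In the Inv library against the Ins library, 0 of 9 HoxA positions were at least 20 points higher and 1 was lower, while 4.87% and 27.6% of 47489 positions were. The lower one was the Hoxa4-Hoxa5 position, by −21.5 points. The stronger Hoxa7-Hoxa9 position was 12 points higher, and 90.7% of all positions had a lower difference. In the Inv:Del(CBS7-10) library against the Inv library, 1 of 9 HoxA positions was at least 20 points higher and 0 were lower, while 29.8% and 2.14% of 50281 positions were. That one was again the weaker Hoxa7-Hoxa9 position, at 57.9 in the Inv:Del(CBS7-10) library against 16.9 in the Inv library, and 93.2% of all positions had a lower difference. On the other side, Hoxa10 differed by −15.7 points, with 3.42% of all positions lower, and the stronger Hoxa7-Hoxa9 position by −8.47 points, with 7.54% lower. In the Inv list Hoxa10 (96.8) and the stronger Hoxa7-Hoxa9 position (95.4) had little room to rise, and the weaker one (16.9) had much. The shares of all positions given for each comparison do not allow for where a position started. The median difference over HoxA positions was −4.10, −11.5 and 6.73 points in these comparisons, and over all positions −5.09, −8.14 and 10.3 points. The first 2 comparisons share the Ins library, and the last shares the Inv library with the second.

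**Figure D4:**
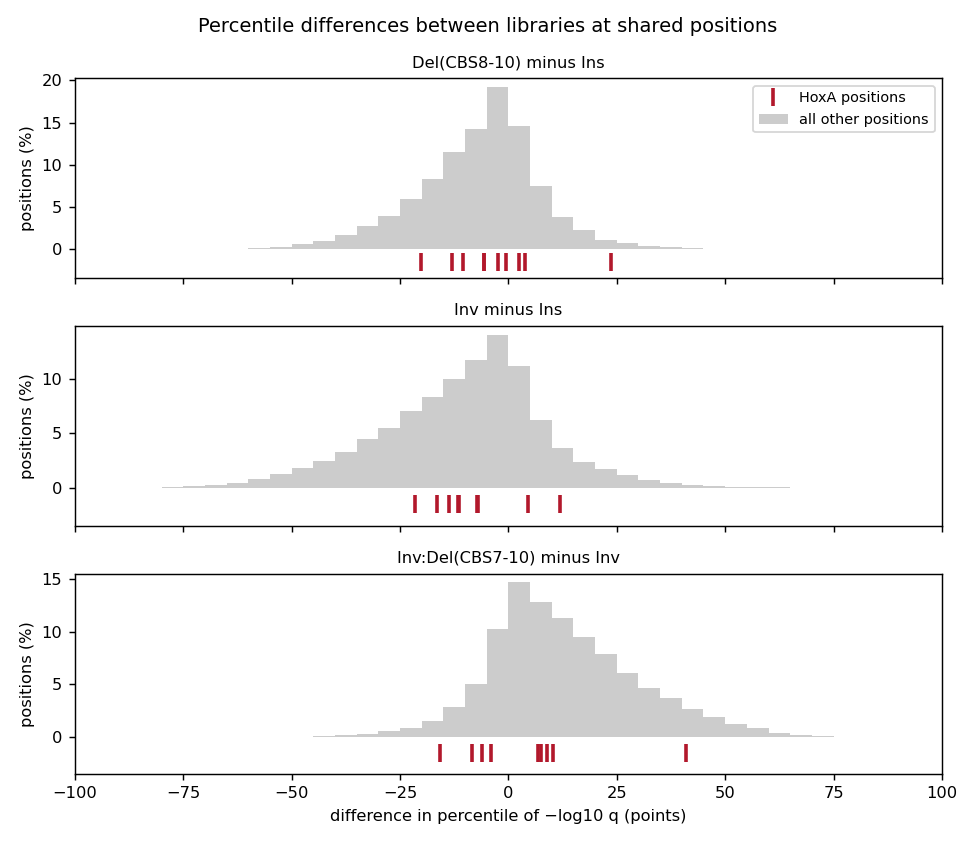
Difference in the percentile of −log10 q between paired libraries, in points, at positions with a summit in both: grey bars are the share of all other positions outside chromosome 11 in bins of 5 points, and red ticks are the HoxA positions. The HoxA ticks lie within the grey distributions, with the weaker Hoxa7-Hoxa9 position far to the right in the first and last panels (23.7 and 41.0 points).

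A further reading that needs no depth is the share of each position in the pileup summed over the 9 shared positions. The summed pileup was 260, 732, 237 and 526 in the Del(CBS8-10), Inv:Del(CBS7-10), Inv and Ins libraries. The pileups of both Hoxa7-Hoxa9 positions need not come from separate fragments, so the intervals are approximate here too. Hoxa10 took 20.0%, 17.9%, 27.0% and 21.3%. The stronger Hoxa7-Hoxa9 position took 12.3% in the Del(CBS8-10) library (95% Wilson interval 8.85 to 16.9), 21.6% in the Inv:Del(CBS7-10) library (18.8 to 24.7), 25.3% in the Inv library (20.2 to 31.2) and 14.8% in the Ins library (12 to 18.1). The intervals of both libraries with the inverted array overlap each other and lie above those of the Del(CBS8-10) and Ins libraries. The Hoxa4-Hoxa5 position took 8.46% in the Del(CBS8-10) library (5.65 to 12.5), 2.32% in the Inv:Del(CBS7-10) library (1.45 to 3.69), 3.38% in the Inv library (1.72 to 6.52) and 6.46% in the Ins library (4.66 to 8.90). Its interval in the Inv:Del(CBS7-10) library lies below those of the Del(CBS8-10) and Ins libraries, while the Inv interval overlaps all of the others. The shares add up to 100%, so a higher share at one position lowers the others. Local background was not subtracted from these pileups either. The positions named here were not fixed in advance, and not every position divided the libraries by the orientation of the array. The weaker Hoxa7-Hoxa9 position took 7.31%, 8.20%, 5.49% and 3.61% in the Del(CBS8-10), Inv:Del(CBS7-10), Inv and Ins libraries. Genotype and library cannot be told apart here.

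**Figure D5:**
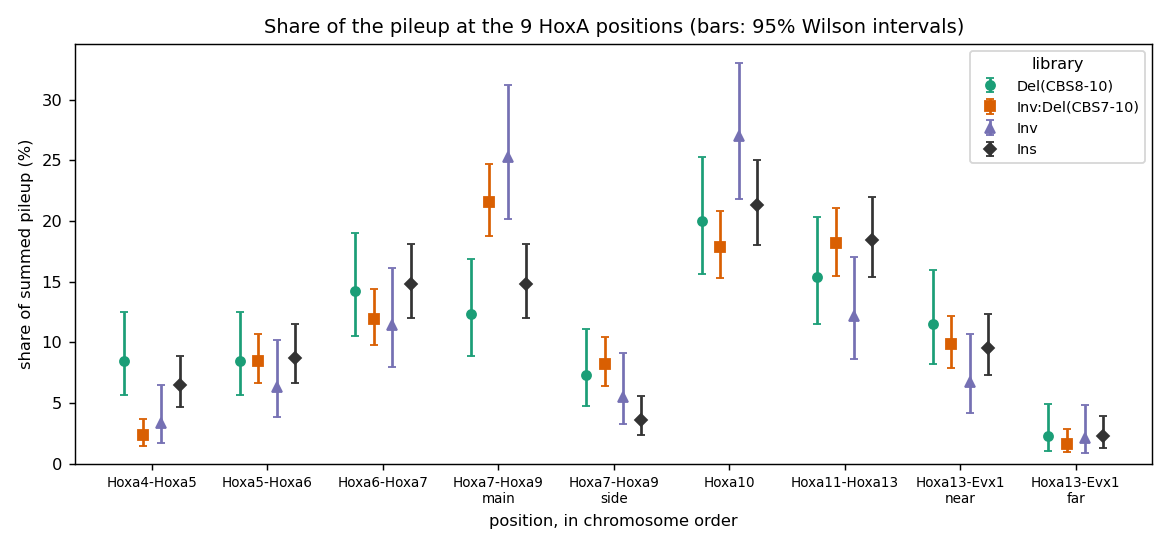
Share of the pileup summed over the 9 shared HoxA positions, in percent, per position and library, with 95% Wilson intervals as bars (counting error only). The Inv:Del(CBS7-10) and Inv libraries lie above the other two at the stronger Hoxa7-Hoxa9 position (21.6% and 25.3%), and at the Hoxa4-Hoxa5 position the Inv:Del(CBS7-10) interval lies below those of the Del(CBS8-10) and Ins libraries while the Inv interval overlaps them.

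The other unedited Hox clusters were read from Hoxc4 to Hoxc13 and from Hoxd1 to Evx2, with 10 kb added on each side and no test between clusters. The spans are unlike parts of their clusters: that of HoxA starts at Hoxa3, that of HoxD at Hoxd1, and that of HoxC ends at a Hox gene. In these spans HoxA had 5.32 positions in all 4 lists per 100 kb (9 in 169 kb), HoxD 6.05 (8 in 132 kb) and HoxC 2.95 (4 in 136 kb). The share of positions in all 4 lists was 52.9% at HoxA, 57.1% at HoxD (32.6 to 78.6) and 33.3% at HoxC (13.8 to 60.9), and the intervals overlap. The median peak width, taken over summits, was larger at HoxA. It was 353, 478, 374 and 579 bp at HoxA, against 292, 407, 285 and 336 bp over all summits of the Del(CBS8-10), Inv:Del(CBS7-10), Inv and Ins lists. An interval with several summits was counted for each of them, which at HoxA was most frequent in the Ins list. A peak interval was shared with another summit by 0 of 11, 2 of 11, 2 of 10 and 6 of 13 HoxA summits, against 7.93%, 13.0%, 6.23% and 12.3% of all summits of these lists. Summits that share an interval are not separate counts, and no interval was computed for these shares. The HoxA share was well above this background in the Ins list alone. In the Del(CBS8-10), Inv:Del(CBS7-10) and Inv lists the counts are too small to be told from it.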

How the data were processed

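CTCF CUT&RUN peaks of 4 mESC libraries, 1 per genotype, were analysed. Per the submitters' processing notes, MACS2 2.2.7.1, Bowtie2 2.4.5, cutadapt 4.1, Picard and bedtools 2.30.0 were used, with the build mm10. The sources used here do not give settings, read filters, controls or read depth. The deposited lists, 1 per library with nothing pooled, name 2 copies of chromosome 11, and coordinates on chromosome 6 were read as mm10. In the deposited lists the score is 10 times the −log10 q, made a whole number. Each summit's fold over local background, −log10 p-value and −log10 q-value are as deposited by the authors.

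Everything else was computed with SciPy 1.17.1, pandas 2.3.3 and NumPy 2.4.6 under Python 3.11.15, and plotted with Matplotlib 3.10.9. Percentiles are mid-ranks among all peaks of a list. Summits within 100 bp were joined by single linkage. Gene spans came from RefSeq (GRCm38.p6), whose table gives no exons. The whole-number pileup and the local background were solved from the deposited fold and −log10 p together, taking the fold as the pileup over the background with 1 added to each, with a tolerance of 0.001. All 45 HoxA summits had a single solution. Over all peaks, a solution was found for 99.9%, 98.3%, 99.98% and 99.8% in the Del(CBS8-10), Inv:Del(CBS7-10), Inv and Ins libraries. There the lowest pileup that solved both was taken, and whether it was the only one was not checked. Matching and recovery were tested on simulated data. Every position is named, and values per library are given for those in all 4 lists or with a −log10 q of at least 10. The HoxA members, gene lists and settings were chosen with earlier results of these data known. Some genes that a list holds are not reported here. The sequence under peaks outside promoters was not used here.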

Additional observations from a re-analysis of the deposited data

How the results depend on the processing

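With 1 library per genotype, differences between libraries have no replicate check. No paired analysis was possible because each genotype has 1 library and no test was made. Of 102 values recomputed under other settings, 75 stayed near the reported value, 27 moved further and 0 changed sign. Near means within 1.5 times the reported count or, for the difference between the parts, within 6.45 points. The latter is the SD of that difference over the 4 libraries. Counts have no sign, so the 0 refers to the difference between the parts alone. Recomputed, that difference ran from −9.51 points (Ins, gaps split at their midpoints) to −42.1 points (Del(CBS8-10), −log10 q of at least 10). Values are given in the order Del(CBS8-10), Inv:Del(CBS7-10), Inv and Ins.

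With only the 20000 strongest peaks of each list, HoxA had 5 positions, 2 of them in every list, and 4, 3, 4 and 4 summits, of which 1, 0, 1 and 1 lay in the Hoxa3-Hoxa7 part. Of these, 3 Del(CBS8-10) summits were found in the Ins list, 4 Inv summits in the Ins list and 3 Inv:Del(CBS7-10) summits in the Inv list. Only 6 genes had an Inv:Del(CBS7-10) summit within 10 kb. With peaks below a −log10 q of 10 left out, there were 9 positions, with 6 summits in the Inv list and 7 in the Ins list. The Hoxa3-Hoxa7 part then lay −42.1, −25.6 and −41.3 points from the Hoxa9-Hoxa13 part in the Del(CBS8-10), Inv:Del(CBS7-10) and Ins lists. Percentiles were then taken among only 41542, 69044 and 60222 peaks of these lists, which by itself widens a difference in points. In the Del(CBS8-10) list the parts still held 3 and 2 summits. These larger values therefore do not show a larger gap among strong peaks. With gaps split at their midpoints, the Hoxa9-Hoxa13 part had 6, 6, 6 and 7 summits, and the difference was −10.4, −15.5 and −9.51 points in the Del(CBS8-10), Inv and Ins lists, since both Hoxa7-Hoxa9 positions and those up to the midpoint between Hoxa13 and Evx1 then counted in that part. Leaving out each library in turn, a setting added after the data were seen, gave 14 to 16 positions and 9 in every remaining list each time. Restricting the parts to positions in all lists, also added later, gave −23.4, −18.9, −33.4 and −26.4 points.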

Other observations

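Of 11 other genes that neighbour or run through the HoxA cluster, 9, 10, 11 and 11 had a CTCF summit within 10 kb in the Del(CBS8-10), Inv:Del(CBS7-10), Inv and Ins libraries, against 63.9%, 69.0%, 60.6% and 68.0% of 46852 RefSeq genes outside chromosome 11. Several of these genes lie within the HoxA span and share its summits, so they are not separate counts. The exceptions were 2 lncRNA genes on the Hoxa3 side. Hotairm1 lacked a summit in the Del(CBS8-10) library, and Hoxaas2 lacked one there and in the Inv:Del(CBS7-10) library.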
